A study of Mus musculus with 9 samples.

Results

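The genes that make cholesterol and fatty acids, the sensors that switch them on, and the genes that carry cholesterol out of the cell were examined in lung fibroblasts of aged mice 30 days after bleomycin or saline. They comprise 34 genes, taken by symbol from the 43346 genes of the deposited table, and all 34 were among the 16877 genes with enough reads to be tested. They fall into 6 enzymes of the mevalonate pathway, 11 enzymes that turn farnesyl units into squalene and then cholesterol, 5 genes of the SREBP machinery, 7 enzymes of fatty acid synthesis, and 5 genes of cholesterol efflux, LXR signalling and transport. Col1a1-GFP mice, on an FVB background and male according to the study's methods, carried a reporter that is driven by the collagen I promoter. The mice were aged, which the labels give both as 18 months and as 72 weeks. They received 1 intratracheal dose of saline (aged sham, n = 4) or bleomycin (aged bleo, n = 5), a drug that injures the lung epithelium and leads to fibrosis, and the lungs were taken at day 30. GFP+, CD45-, CD31-, EpCAM- cells were sorted, so the libraries hold all cells with an active collagen reporter rather than 1 fibroblast type. Every group was aged, so nothing here speaks to age, and the labels do not say whether each library is 1 mouse, so p-values measure the spread between these libraries.

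Cholesterol is built from acetyl-CoA through mevalonate, farnesyl diphosphate, squalene and lanosterol. The transcription factors SREBP1 and SREBP2 are held in the endoplasmic reticulum by SCAP and the INSIG proteins while sterols are plentiful. When sterols are scarce SCAP escorts them to the Golgi, where they are cleaved, and the released part enters the nucleus and binds sterol regulatory elements in the promoters of the synthesis genes. Oxysterols and late sterol intermediates activate the liver X receptors (LXR), which drive export through the transporters ABCA1 and ABCG1. Lung fibroblasts include lipid-storing cells next to the alveoli, and the lung as a whole needs fatty acids and cholesterol for surfactant.

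The libraries held 49921946 to 68260600 counted reads. The members were well covered, from a mean of 396 counts for Mvd to 15405 counts for Scd2, and the lowest count of any member in any library was 185. All 7 fibroblast markers were detected. Col1a1, whose promoter drives the sort gate, averaged 4154 ± 407 CPM in aged sham (SD, n = 4) and 20853 ± 4970.3 CPM in aged bleo (SD, n = 5). Col1a1, Col1a2 and Col3a1 rose, Dcn (log2 fold change -1.54, FDR 0.00667) and Tcf21 (log2 fold change -1.10, FDR 0.0121) fell, and Pdgfra (log2 fold change -0.43, FDR 0.112) and Lum (log2 fold change -0.18, FDR 0.601) were not called. Because the sort gate follows the collagen I promoter and Col1a1 RNA itself rose (log2 fold change 2.33, FDR 0.000176), a change per cell and a change in which cells passed the gate cannot be told apart. Expression is given as TMM-normalised CPM, read counts scaled to library size. Fold changes compare aged bleo with aged sham on the log2 scale, from the edgeR quasi-likelihood test with Benjamini-Hochberg adjustment over all tested genes (FDR), and a gene was called changed at an FDR under 0.10 with a fold change over 1.5.

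Of the 34 genes, 11 rose and 2 fell in aged bleo, and 21 were not called. The shares were 32.4% higher and 5.88% lower, where 12.3% of all tested genes were called higher and 11.5% lower, 23.8% in all. The genes that rose were Hmgcs1, Mvd, Fdps, Sqle, Cyp51, Hsd17b7, Ebp, Dhcr7, Elovl6, Abcg1 and Stard4, and those that fell were Scd1 and Insig2. The rises lay mainly in the sterol enzymes, where 8 of 17 rose (47.1%) and none fell. Their median log2 fold change was 0.52, against 0.35 over the 34 genes and 0.01 over all tested genes. Every aged bleo library lay above every aged sham library for 10 of the 34 genes (29.4%) and below for 3 (8.82%), and each of these patterns held for 16.1% of all tested genes. Another 9 members passed the FDR threshold with a fold change of 1.5 or less, a class that held 20.9% of all tested genes.

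**Figure D1:**
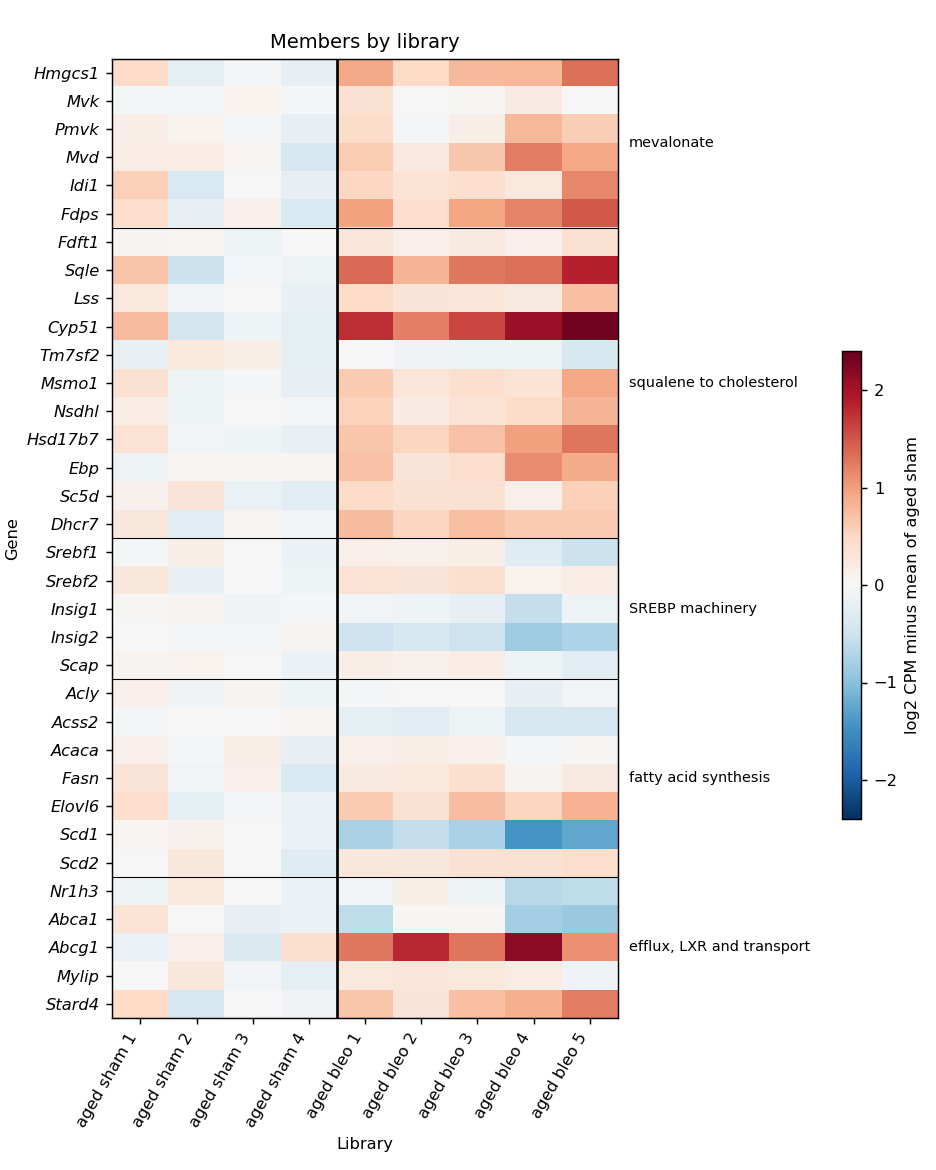
Heatmap of the 34 genes (vertical axis, by role) in the 4 aged sham and 5 aged bleo libraries (horizontal axis), coloured by the log2 CPM of the library minus the mean log2 CPM of the aged sham libraries. The sterol enzymes are mostly red in the aged bleo columns, with Cyp51 the deepest, aged sham 1 is red beside the other sham libraries for Sqle and Cyp51, and Scd1 and Insig2 are blue in all 5 aged bleo libraries.

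All 6 mevalonate enzymes had positive fold changes, from 0.12 to 1.01 on the log2 scale, and 3 of them rose. Over all tested genes, 50.7% had a positive fold change and 12.3% were called higher. Hmgcs1 (ENSMUSG00000093930, chr13:119690462-119708086), the synthase that condenses acetyl-CoA with acetoacetyl-CoA at the head of the pathway, stood at 81.3, 50.9, 57.3 and 51.5 CPM in aged sham 1 to 4 and 111, 82.2, 102, 102 and 148 CPM in aged bleo 1 to 5. Aged sham 1 was the highest sham library, just below the lowest bleo library, so that the groups did not overlap. Its expression rose 1.81-fold (log2 fold change 0.86, SE 0.19, FDR 0.00938). Fdps (ENSMUSG00000059743, chr3:89093592-89101967), which makes farnesyl diphosphate, stood at 18.0, 11.8, 14.6 and 10.4 CPM in the aged sham libraries against 26.1, 17.8, 25.7, 30.4 and 37.7 CPM in the aged bleo libraries. The groups met at aged sham 1, which was slightly above aged bleo 2, and Fdps rose (log2 fold change 1.01, SE 0.23, FDR 0.00956). Mvd (ENSMUSG00000006517, chr8:122433596-122443422), the decarboxylase that yields isopentenyl diphosphate, was the least covered member, at 5.49, 5.48, 4.97 and 3.73 CPM in the aged sham libraries against 7.39, 5.74, 7.60, 11.3 and 9.28 CPM in the aged bleo libraries. The groups did not overlap, and Mvd rose (log2 fold change 0.75, SE 0.21, FDR 0.0211). The call was lost on the log2(FPKM + 1) scale, which compresses low levels, at 0.46, as were those of Hsd17b7 (0.53), Dhcr7 (0.43), Stard4 (0.47), Elovl6 (0.40) and Insig2 (-0.47). The Mvd span is shared with Gm20388 on the other strand, which averaged 15170 counts against 396 for Mvd and was not called (log2 fold change -0.14, FDR 0.237). The library kit does not mark strand, so reads of the 2 genes cannot be told apart where they overlap.

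The remaining 3 mevalonate enzymes were not called. Idi1, the isomerase of isopentenyl diphosphate, had 8.61, 4.52, 5.80 and 5.10 CPM in the aged sham libraries against 8.20, 7.32, 7.71, 6.96 and 13.0 CPM in the aged bleo libraries, with aged sham 1 above every aged bleo library but aged bleo 5 (log2 fold change 0.52, FDR 0.121). Without aged sham 1, Idi1 passed both thresholds at a log2 fold change of 0.75. Pmvk, the phosphomevalonate kinase, had 6.90 ± 0.723 CPM in aged sham (SD, n = 4) and 9.16 ± 2.10 CPM in aged bleo (SD, n = 5) (log2 fold change 0.41, FDR 0.0943). Mvk, the mevalonate kinase, had the smallest difference of the pathway, at 12.9 ± 0.564 CPM in aged sham (SD, n = 4) and 14.1 ± 1.62 CPM in aged bleo (SD, n = 5) (log2 fold change 0.12, FDR 0.346, 95% interval -0.09 to 0.34).

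Of the 11 enzymes from squalene to cholesterol, 5 rose (45.5%), 5 more passed the FDR threshold with a fold change of 1.5 or less, and none fell. Over all tested genes these shares were 12.3% higher, 20.9% past the FDR threshold alone and 11.5% lower. Cyp51 (ENSMUSG00000001467, chr5:4081145-4104746), the lanosterol 14-alpha demethylase, had the largest fold change of all members, at 37.2, 16.2, 20.4 and 19.1 CPM in aged sham 1 to 4 and 75.6, 50.8, 66.8, 92.5 and 109.9 CPM in aged bleo 1 to 5. Aged sham 1 was the highest sham library and still below aged bleo 2, the lowest bleo library. Its mean rose from 23.2 ± 9.47 CPM (SD, n = 4) to 79.1 ± 22.9 CPM (SD, n = 5), or 3.41-fold (log2 fold change 1.77, SE 0.29, FDR 0.00258). Sqle (ENSMUSG00000022351, chr15:59315077-59331192), the squalene epoxidase and a rate-limiting oxygenation step, stood at 20.3, 8.88, 12.3 and 11.6 CPM in the aged sham libraries against 32.6, 22.2, 30.5, 31.5 and 46.3 CPM in the aged bleo libraries. The order was the same as for Cyp51 at its inner edge, with aged sham 1 just under aged bleo 2, and Sqle rose 2.46-fold (log2 fold change 1.30, SE 0.27, FDR 0.00648).

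The other 3 called enzymes of this stretch act after lanosterol. Hsd17b7 (ENSMUSG00000026675, chr1:169949535-169969241), a 3-ketosteroid reductase that removes a methyl group together with Nsdhl and Msmo1, had 18.2, 13.7, 13.3 and 12.7 CPM in the aged sham libraries against 22.7, 20.5, 23.4, 28.4 and 34.8 CPM in the aged bleo libraries, with no overlap (log2 fold change 0.84, SE 0.17, FDR 0.00657). Ebp (ENSMUSG00000031168, chrX:8185329-8193512), the sterol delta8-delta7 isomerase, had 20.9, 23.4, 23.0 and 23.6 CPM in the aged sham libraries against 37.0, 28.2, 30.4, 49.7 and 41.8 CPM in the aged bleo libraries. The sham libraries were close together, aged bleo 4 was the highest, and the groups did not overlap (log2 fold change 0.72, SE 0.16, FDR 0.00867). Dhcr7 (ENSMUSG00000058454, chr7:143823145-143848410), the 7-dehydrocholesterol reductase that closes the pathway, had 14.4, 10.1, 12.2 and 11.4 CPM in the aged sham libraries against 20.2, 17.0, 19.7, 18.4 and 18.5 CPM in the aged bleo libraries. The bleo libraries of Dhcr7 lay within 17.0 to 20.2 CPM, above all 4 sham libraries (log2 fold change 0.64, SE 0.11, FDR 0.00272). Ebp was not called without aged sham 1 and aged bleo 4 together (log2 fold change 0.56), and Dhcr7 not without aged sham 2 (0.56).

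Between squalene synthase and the last steps, 5 enzymes passed the FDR threshold at smaller folds. Msmo1, the C4 methyl sterol oxidase, had 22.3, 15.8, 16.6 and 15.1 CPM in the aged sham libraries against 26.5, 21.2, 22.9, 21.6 and 32.8 CPM in the aged bleo libraries (log2 fold change 0.52, SE 0.16, FDR 0.0348), and passed the fold threshold too without aged sham 1 (0.66). Nsdhl, its partner dehydrogenase, averaged 10.8 ± 0.96 CPM in aged sham (SD, n = 4) and 15.1 ± 2.55 CPM in aged bleo (SD, n = 5), and no libraries of the groups overlapped (log2 fold change 0.48, FDR 0.0195). Lss, the lanosterol synthase (log2 fold change 0.40, FDR 0.0369), Sc5d, the lathosterol oxidase (log2 fold change 0.37, FDR 0.0557), and Fdft1, the squalene synthase (log2 fold change 0.22, FDR 0.0426), had still smaller differences. Fdft1 did not overlap between the groups, and its span is shared with the abundant protease gene Ctsb on the other strand. Ctsb averaged 55857 counts against 2001 for Fdft1 and was not called (log2 fold change 0.17, FDR 0.149). Tm7sf2, a sterol C14 reductase, was the sole sterol enzyme with a negative fold change, at 9.74 ± 1.59 CPM in aged sham (SD, n = 4) and 8.76 ± 0.853 CPM in aged bleo (SD, n = 5) (log2 fold change -0.15, FDR 0.382, 95% interval -0.44 to 0.14), and its span is shared with Vps51 on the same strand.

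**Figure D2:**
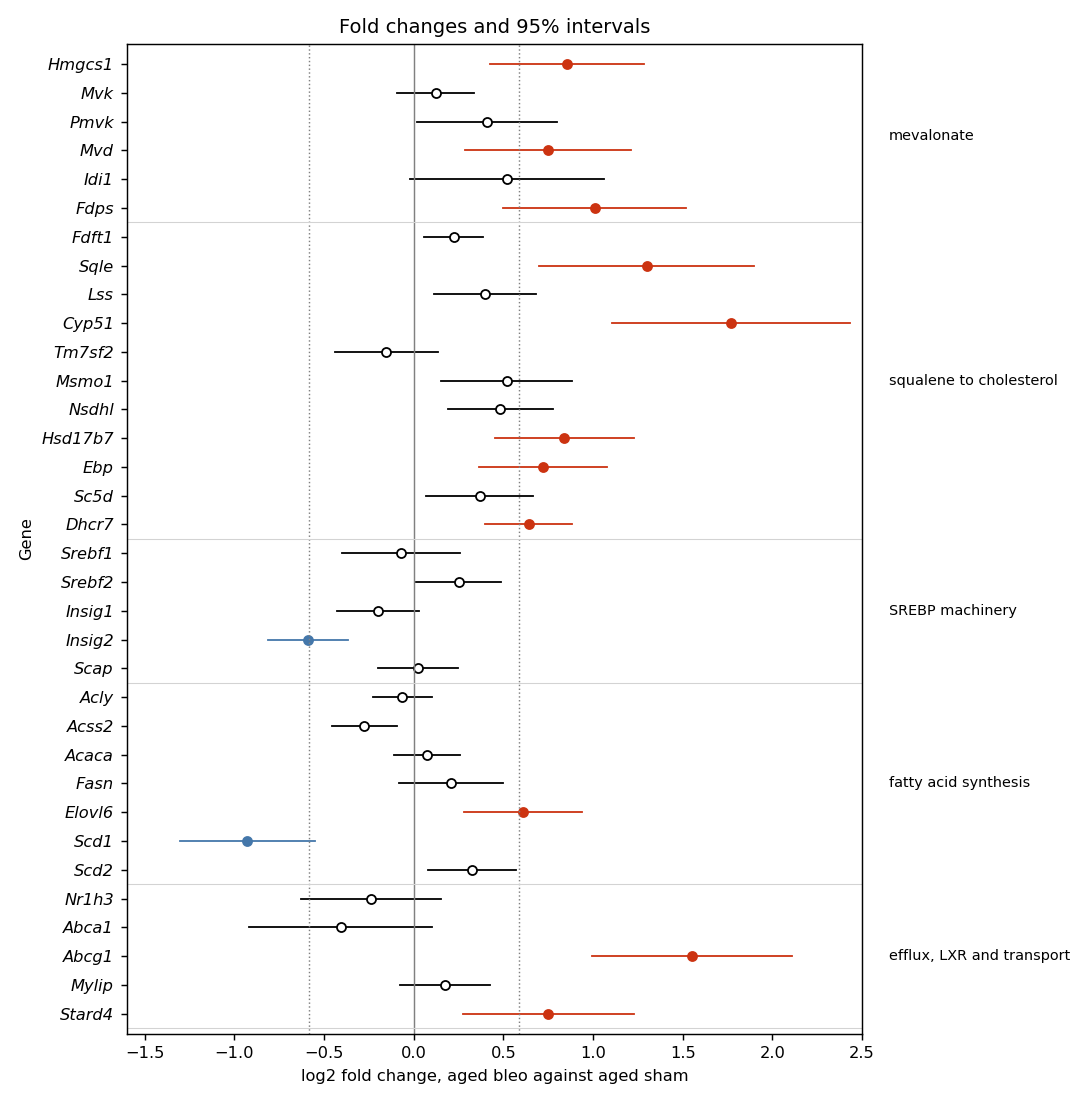
Log2 fold changes of the 34 genes, aged bleo against aged sham (horizontal axis, log2 scale), as points with 95% intervals from the edgeR fit, by role, with dotted lines at the 1.5-fold threshold and filled points for genes that were called (red higher, blue lower). Points lie right of 0 for 16 of the 17 sterol enzymes, and lie on both sides for the SREBP machinery and the fatty acid genes.

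SREBP proteins act through short promoter elements, so promoters of some of the called sterol enzymes are shown for reference. RefSeq promoters (build GRCm38.p6, 300 bases, 250 before the start of the transcript and 50 after) were matched for 27 of the 34 genes and for 14 of the 17 sterol enzymes. Abcg1, Fdft1, Fdps, Scd1, Scd2, Sqle and Stard4 were not matched. The sequences of Hmgcs1 (chr13:119690101-119690400, plus strand), Cyp51 (chr5:4104648-4104947, minus strand) and Hsd17b7 (chr1:169969156-169969455, minus strand) are printed because each holds a sterol regulatory element, and that of Ebp (chrX:8193463-8193762, minus strand) because it rose without one in this window. Mvd and Dhcr7 also rose without such an element in their windows, and their sequences are not printed. They run 5′ to 3′ along the gene's strand, and capitals mark the element TCACCNCA (or TCACNCCAC) and CCAAT boxes, which read ATTGG on the other strand. The deposited Hmgcs1 span begins downstream of this RefSeq window.
Hmgcs1: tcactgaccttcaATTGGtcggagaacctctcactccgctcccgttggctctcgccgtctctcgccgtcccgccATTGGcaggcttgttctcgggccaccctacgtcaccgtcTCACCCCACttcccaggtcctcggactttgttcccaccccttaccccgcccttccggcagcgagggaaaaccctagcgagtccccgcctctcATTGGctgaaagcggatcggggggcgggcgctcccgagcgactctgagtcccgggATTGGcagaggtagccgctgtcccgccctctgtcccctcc
Cyp51: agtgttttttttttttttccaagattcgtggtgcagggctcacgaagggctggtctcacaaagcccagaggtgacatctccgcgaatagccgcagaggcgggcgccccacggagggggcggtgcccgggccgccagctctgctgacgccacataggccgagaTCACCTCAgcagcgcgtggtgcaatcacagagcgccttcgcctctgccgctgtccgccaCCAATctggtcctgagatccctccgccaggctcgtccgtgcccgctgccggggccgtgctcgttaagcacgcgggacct
Hsd17b7: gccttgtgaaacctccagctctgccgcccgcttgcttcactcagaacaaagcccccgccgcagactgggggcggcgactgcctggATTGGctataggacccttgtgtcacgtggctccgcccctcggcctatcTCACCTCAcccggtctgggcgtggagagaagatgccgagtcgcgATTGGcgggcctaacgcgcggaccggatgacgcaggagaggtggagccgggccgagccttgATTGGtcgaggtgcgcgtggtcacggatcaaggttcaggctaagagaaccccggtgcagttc
Ebp: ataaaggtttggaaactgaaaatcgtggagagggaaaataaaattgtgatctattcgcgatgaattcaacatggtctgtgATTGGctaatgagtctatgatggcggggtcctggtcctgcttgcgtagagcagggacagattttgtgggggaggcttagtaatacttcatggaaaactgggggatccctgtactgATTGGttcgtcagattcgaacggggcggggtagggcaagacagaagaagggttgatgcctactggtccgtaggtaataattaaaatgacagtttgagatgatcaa

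The element TCACCNCA, searched on both strands, began 137 bases before the start in Hmgcs1, 88 before in Cyp51 and 117 before in Hsd17b7. Srebf2 held it 162 bases before its start. It was thus found in 3 of 14 sterol enzymes and 4 of 27 members, against 5.08% of 27025 genes and 4.42% of all 32851 promoters. The related form TCACNCCAC overlaps it and was found in Hmgcs1 and in 1.24% of all promoters. CCAAT, bound by NF-Y, was present in at least 1 window of all 14 sterol enzymes and in 22 of 27 members, against 41.1% of genes and 37.4% of promoters. GGGCGG, the core letters bound by Sp1, was present in 13 of 14 sterol enzymes and 22 of 27 members, against 38.2% of genes and 35.7% of promoters. The E-box TCACGTGA was found in 0 of 27 members and 0.974% of promoters. The comparison shares cover all genes and promoters of the RefSeq set, tested here or not. They are not matched to the members for expression or base composition. These letter matches describe the windows and are not measured binding.

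Of the 5 genes of the SREBP machinery, 0 were called higher and 1 lower, where 12.3% and 11.5% of all tested genes were, so the count says little about so short a list. Srebf2, which encodes the sterol-selective SREBP2, had 131, 96.4, 108 and 101 CPM in the aged sham libraries against 138, 134, 141, 114 and 122 CPM in the aged bleo libraries, passing the FDR threshold at a small fold (log2 fold change 0.25, SE 0.11, FDR 0.0918). Srebf1, which encodes the SREBP1 forms that favour fatty acid genes, had 99.9, 114, 101 and 91.5 CPM in the aged sham libraries against 110.1, 109, 112, 82.7 and 70.6 CPM in the aged bleo libraries (log2 fold change -0.07, FDR 0.74, 95% interval -0.40 to 0.26). Aged bleo 4 and 5 were the lowest of all 9 libraries for Srebf1. Scap, the escort protein, averaged 63.3 ± 4.23 CPM in aged sham (SD, n = 4) and 64.3 ± 8.09 CPM in aged bleo (SD, n = 5) (log2 fold change 0.02, FDR 0.877). The spans of Srebf1 and Scap also hold genes of the other strand, Rai1 and 5830462I19Rik, neither of which was called.

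The retention proteins INSIG1 and INSIG2 block that escort when sterols are high, and Insig1 is itself a well-known SREBP2 target. Insig1 had 63.2, 64.7, 58.6 and 60.8 CPM in the aged sham libraries against 59.2, 57.8, 54.1, 41.6 and 56.5 CPM in the aged bleo libraries, with aged bleo 4 low (log2 fold change -0.20, FDR 0.152, 95% interval -0.43 to 0.03). Insig2 (ENSMUSG00000003721, chr1:121304353-121332589) had 50.8, 49.1, 49.1 and 52.8 CPM in the aged sham libraries against 35.9, 38.5, 35.7, 27.7 and 30.0 CPM in the aged bleo libraries. All 5 bleo libraries lay below all 4 sham libraries, and Insig2 fell (log2 fold change -0.59, SE 0.10, FDR 0.00265). The fitted value was hardly past the 1.5-fold threshold, which is 0.585 on the log2 scale, and the call was lost under 10 of 20 alternative fits, among them leaving out aged sham 4, aged bleo 4 or aged bleo 5, with values of -0.57, -0.53 and -0.55.

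**Figure D3:**
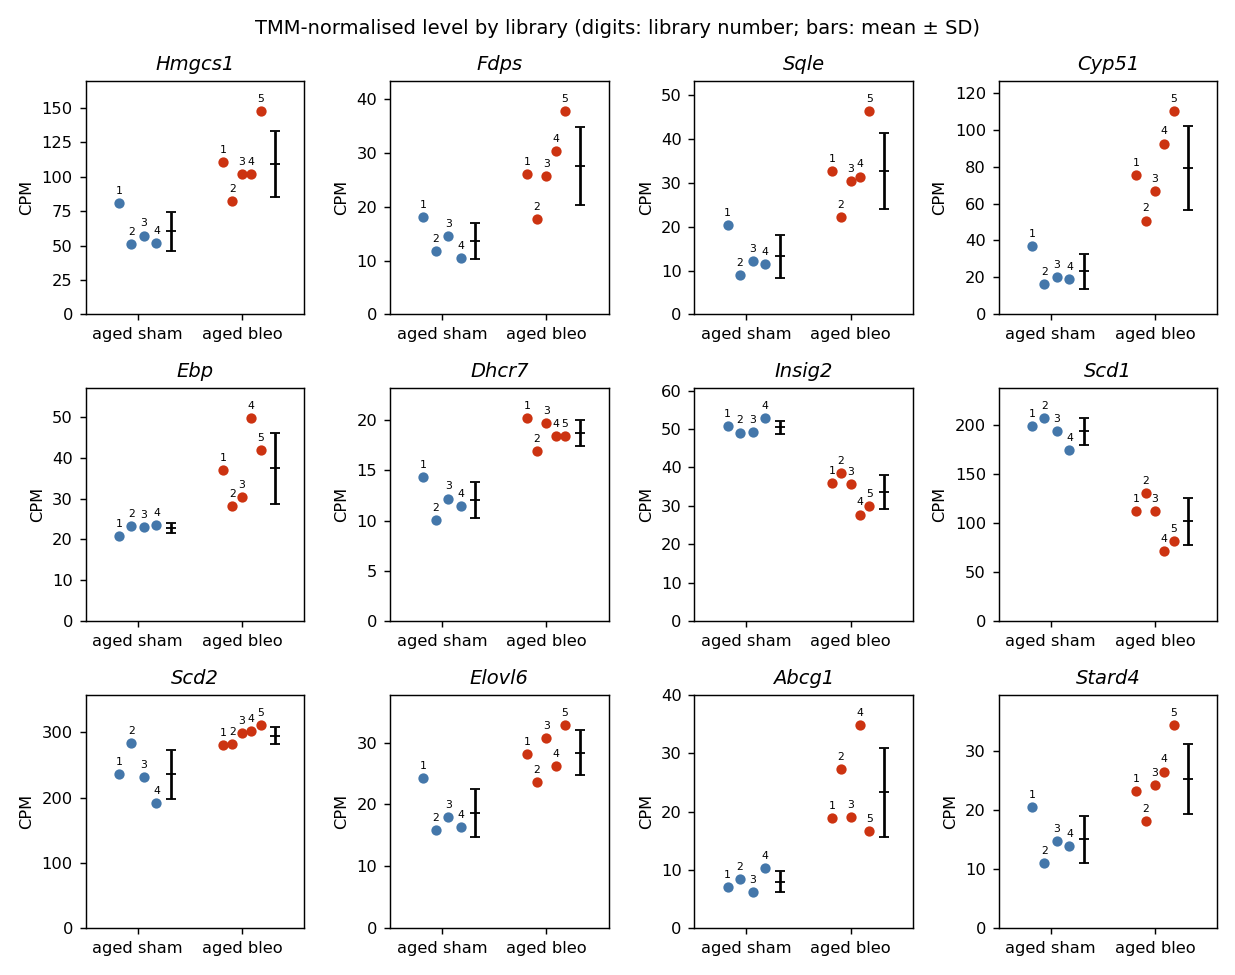
Expression of 12 members, 11 of them called and Scd2, in each library (CPM, linear axes from 0), with 1 point per library numbered by replicate, blue for aged sham and red for aged bleo, and black bars for the group mean ± SD. Cyp51, Sqle and Abcg1 lie higher in all 5 aged bleo libraries, and Scd1 and Insig2 lie lower in all 5.

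Of the 7 fatty acid synthesis genes, 1 was called higher and 1 lower, 14.3% each, near the 12.3% and 11.5% of all tested genes. Scd1 (ENSMUSG00000037071, chr19:44394451-44407709), a delta-9 desaturase that makes oleate from stearate, had 199, 207, 194 and 175 CPM in aged sham 1 to 4 and 112, 131, 113, 71.7 and 82.0 CPM in aged bleo 1 to 5. The sham libraries lay between 175 and 207 CPM and the bleo libraries between 71.7 and 131 CPM, with aged bleo 4 and 5 lowest. These were also the lowest bleo libraries for the fibroblast markers Dcn, Lum, Pdgfra and Tcf21, but not for Col1a1, Col1a2 and Col3a1. The part of the mix of fibroblasts in the Scd1 result was not tested. Scd1 fell (log2 fold change -0.93, SE 0.17, FDR 0.00375), and the call held under all 20 alternative fits at these thresholds, but not at a fold change over 2. Its neighbour paralog Scd2 had 236, 283, 232 and 191 CPM in the aged sham libraries against 281, 282, 299, 301 and 311 CPM in the aged bleo libraries, the reverse sign at a smaller fold that was not called (log2 fold change 0.33, SE 0.11, FDR 0.0439). The ratio of Scd1 to Scd2, taken per length from FPKM after their values had been seen, was 0.951, 0.826, 0.946 and 1.03 in aged sham 1 to 4 and 0.451, 0.523, 0.426, 0.268 and 0.297 in aged bleo 1 to 5. The means were 0.938 ± 0.0843 (SD, n = 4) and 0.393 ± 0.107 (SD, n = 5), with no overlap. The 2 genes are near-identical in parts of their sequence, so the counting may have dropped or split some of their reads.

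Elovl6 (ENSMUSG00000041220, chr3:129532386-129638495), the elongase that takes palmitate to stearate and so supplies the Scd enzymes, had 24.2, 15.8, 18.0 and 16.3 CPM in the aged sham libraries against 28.2, 23.6, 30.8, 26.3 and 32.8 CPM in the aged bleo libraries. Only aged sham 1 reached the range of the bleo libraries, and Elovl6 rose (log2 fold change 0.61, SE 0.15, FDR 0.0125). The call was lost under 7 of 20 alternative fits, among them leaving out aged sham 2, aged sham 4, aged bleo 3 or aged bleo 5, with values of 0.54, 0.55, 0.58 and 0.55. The enzymes at the head of the pathway were not called. Fasn, the fatty acid synthase, averaged 109.7 ± 21.3 CPM in aged sham (SD, n = 4) and 127 ± 9.83 CPM in aged bleo (SD, n = 5) (log2 fold change 0.21, FDR 0.239, 95% interval -0.08 to 0.50). Acaca, the acetyl-CoA carboxylase, averaged 39.8 ± 4.29 CPM in aged sham (SD, n = 4) and 41.9 ± 2.15 CPM in aged bleo (SD, n = 5) (log2 fold change 0.07, FDR 0.518), and Acly, the citrate lyase that supplies its acetyl-CoA, 119 ± 9.12 CPM in aged sham (SD, n = 4) and 114 ± 6.36 CPM in aged bleo (SD, n = 5) (log2 fold change -0.06, FDR 0.536). Acss2, which makes acetyl-CoA from acetate, had 15.0, 15.6, 15.7 and 16.1 CPM in the aged sham libraries against 13.4, 13.2, 14.3, 11.8 and 11.7 CPM in the aged bleo libraries. All 5 bleo libraries lay below the sham libraries at a fold under the threshold (log2 fold change -0.28, FDR 0.0268). The Acss2 span is shared with Gss and Ggt7 on the other strand. Gss passed the FDR threshold with the opposite sign (log2 fold change 0.50, FDR 0.0477), and Ggt7 did not pass it (log2 fold change 0.15, FDR 0.330).

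Among the genes of efflux, LXR and transport, 2 of 5 rose and 0 fell. Of all tested genes, 12.3% were called higher and 11.5% lower, so the count says little about so short a list. Abcg1 (ENSMUSG00000024030, chr17:31057698-31115777), a transporter that loads cholesterol onto high-density lipoprotein and a classic LXR target, had 7.01, 8.49, 6.15 and 10.2 CPM in aged sham 1 to 4 and 18.9, 27.3, 19.0, 34.9 and 16.6 CPM in aged bleo 1 to 5. Every bleo library lay above every sham library, aged bleo 4 being the highest, and Abcg1 rose 2.93-fold (log2 fold change 1.55, SE 0.25, FDR 0.00217). Abca1, the other LXR-driven transporter, did not go with it, at 309, 244, 214 and 222 CPM in the aged sham libraries against 159.8, 249, 253, 139 and 132 CPM in the aged bleo libraries. Aged bleo 1, 4 and 5 lay below all sham libraries while aged bleo 2 and 3 lay among them, and the difference was not called (log2 fold change -0.41, SE 0.23, FDR 0.188, 95% interval -0.92 to 0.10). Stard4 (ENSMUSG00000024378, chr18:33199355-33213862), a carrier of cholesterol inside the cell whose transcription follows SREBP2, had 20.5, 11.1, 14.7 and 13.9 CPM in the aged sham libraries against 23.2, 18.1, 24.2, 26.5 and 34.4 CPM in the aged bleo libraries. Aged sham 1 lay above aged bleo 2, and Stard4 rose (log2 fold change 0.75, SE 0.21, FDR 0.0235). Nr1h3, which encodes LXR alpha, averaged 33.4 ± 4.36 CPM in aged sham (SD, n = 4) and 28.3 ± 6.68 CPM in aged bleo (SD, n = 5) (log2 fold change -0.24, FDR 0.311), and Mylip, an LXR target that marks lipoprotein receptors for degradation, 33.1 ± 4.84 CPM in aged sham (SD, n = 4) and 37.4 ± 3.68 CPM in aged bleo (SD, n = 5) (log2 fold change 0.17, FDR 0.252).

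Levels between genes were compared per length, from the deposited FPKM, as means ± SD with n = 4 and n = 5. Scd2 was the most abundant member in 8 of the 9 libraries, at 18.1 ± 3.15 FPKM in aged sham and 23.3 ± 1.41 FPKM in aged bleo, and Scd1 stood next to it in aged sham, within their spread, at 16.8 ± 1.44 FPKM in aged sham and 9.03 ± 1.96 FPKM in aged bleo. Hmgcs1 was the most abundant sterol enzyme in both groups, at 7.81 ± 1.85 FPKM in aged sham and 14.5 ± 3.32 FPKM in aged bleo. Cyp51 stood at 2.27 ± 0.922 FPKM in aged sham and 7.98 ± 2.45 FPKM in aged bleo. It ranked 17 to 20 of 34 in the sham libraries and 4 to 16 in the bleo libraries. Lss was the least abundant sterol enzyme in both groups, at 0.526 ± 0.0701 FPKM in aged sham and 0.711 ± 0.108 FPKM in aged bleo. Abcg1 stayed low for its length, at 0.82 ± 0.174 FPKM in aged sham and 2.48 ± 0.868 FPKM in aged bleo, and below Abca1, at 10.0 ± 1.75 FPKM in aged sham and 7.69 ± 2.27 FPKM in aged bleo.

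The rest of the pathway, 45 further genes of sterol, fatty acid and oxysterol metabolism, held 5 genes called higher (11.1%) and 2 called lower (4.44%), against 12.3% and 11.5% of all tested genes, with a median log2 fold change of 0.04. Of 8 other sterol and isoprenoid genes, Tmem97, a sterol-responsive membrane protein, rose, at 8.32, 7.25, 6.78 and 6.84 CPM in the aged sham libraries against 17.7, 11.3, 16.4, 31.4 and 30.8 CPM in the aged bleo libraries, with no overlap (log2 fold change 1.56, SE 0.30, FDR 0.00478). None of 7 genes of SREBP cleavage and degradation was called, including the proteases Mbtps1 (log2 fold change -0.17, FDR 0.305) and Mbtps2 (log2 fold change 0.24, FDR 0.0333). Of 18 other fatty acid and lipid genes, Acsl4, which activates arachidonate, rose from 62.2 ± 17.8 to 124 ± 26.9 CPM (log2 fold change 1.00, SE 0.22, FDR 0.00823). Fads3, a desaturase family member, rose (log2 fold change 0.63, SE 0.10, FDR 0.00234), and Acacb, the mitochondrial acetyl-CoA carboxylase, fell (log2 fold change -0.72, SE 0.24, FDR 0.0418).

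The oxysterol enzymes moved in opposite directions. Cyp7b1, the oxysterol 7-alpha hydroxylase that inactivates oxysterols, had 19.9, 18.0, 16.4 and 21.0 CPM in the aged sham libraries against 66.3, 55.0, 72.6, 49.9 and 59.7 CPM in the aged bleo libraries, with no overlap, and rose 3.23-fold (log2 fold change 1.69, SE 0.13, FDR 3.98e-05). Cyp27a1, the sterol 27-hydroxylase that makes an LXR-activating oxysterol, had 71.6, 90.9, 65.5 and 78.2 CPM in the aged sham libraries against 27.0, 42.7, 28.5, 12.9 and 11.2 CPM in the aged bleo libraries. All bleo libraries lay below all sham libraries, with aged bleo 4 and 5 lowest, and Cyp27a1 fell (log2 fold change -1.65, SE 0.36, FDR 0.00849). Ch25h, the cholesterol 25-hydroxylase, had 9.61, 15.6, 9.95 and 6.98 CPM in the aged sham libraries against 20.7, 26.9, 36.0, 13.4 and 20.7 CPM in the aged bleo libraries, overlapping between the groups, and rose (log2 fold change 1.16, SE 0.31, FDR 0.0179). These 3 were the called genes among 12 of LXR, oxysterol and cholesterol handling. The shares of that list were 16.7% higher and 8.33% lower, near the 12.3% and 11.5% of all tested genes.

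Within each group, single libraries lay to 1 side for most sterol enzymes. Their mean log2 CPM was 4.06, 3.72, 3.79 and 3.64 in aged sham 1 to 4 (3.80 ± 0.184, SD, n = 4) and 4.47, 4.15, 4.34, 4.49 and 4.71 in aged bleo 1 to 5 (4.43 ± 0.206, SD, n = 5). Aged sham 1 lay above its group's mean for 14 of 17 sterol enzymes and aged sham 4 below for 15, and aged bleo 5 lay above for 14 and aged bleo 2 below for 16. The 8 cell cycle genes, all 8 of them called higher in aged bleo, summed to 65.3 CPM in aged sham 1 and to 14.6 to 16.4 CPM in the other sham libraries. In aged bleo 1 to 5 they summed to 86.9, 44.7, 129, 341 and 299 CPM. Aged sham 1 was the highest sham library and aged bleo 2 the lowest bleo library on both scales, while aged bleo 5 was the highest for the sterol enzymes and aged bleo 4 for the cell cycle genes, and the part of cell division in the sterol enzyme result was not tested. Without aged sham 1 and aged bleo 4 together, a choice made after seeing the data, 12 members rose and 1 fell. That fit kept aged bleo 5, at 299 CPM for the cell cycle genes, and dropped the sham library highest for the sterol enzymes. It is therefore no test of the part of cell division.

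**Figure D4:**
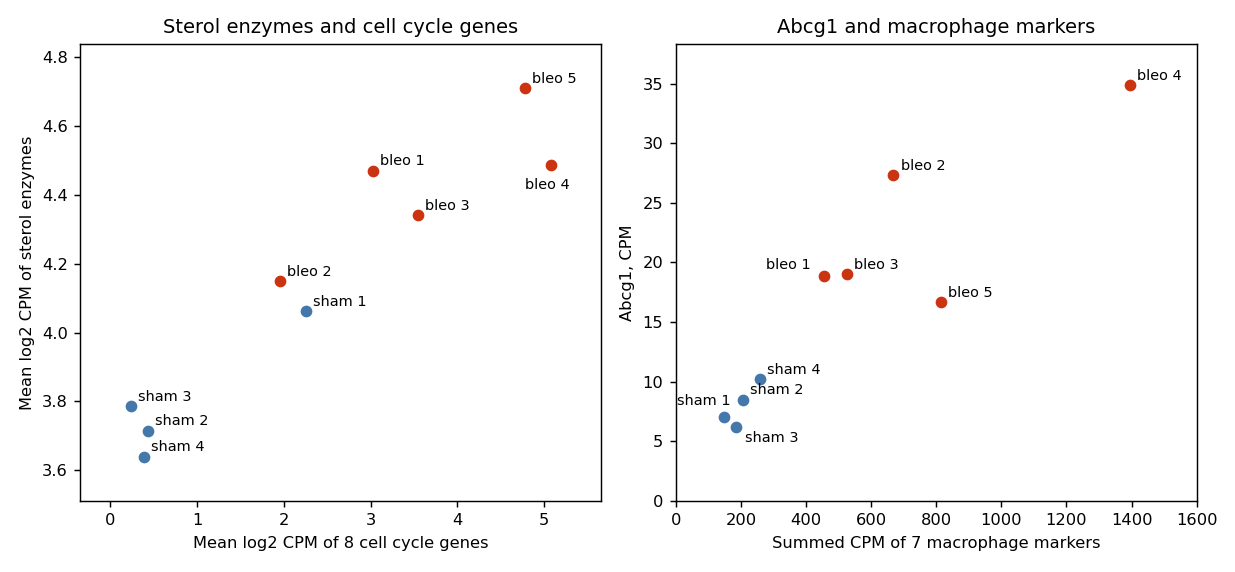
Left, mean log2 CPM of the 17 sterol enzymes (vertical axis) against mean log2 CPM of 8 cell cycle genes (horizontal axis). Right, Abcg1 in CPM (vertical axis) against the summed CPM of 7 macrophage markers (horizontal axis), with 1 point per library, blue for aged sham and red for aged bleo. Aged sham 1 is nearest to the bleo libraries on the left, and aged bleo 4 is farthest out on the right.

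Transcripts of other cell types that use these genes were also measured. The 7 macrophage markers summed to 147 to 258 CPM in aged sham and to 454, 668, 525, 1394 and 814 CPM in aged bleo 1 to 5. Of these 7, Emr1, Cd68, Mrc1 and Lyz2 were called higher, Csf1r, Marco and Mertk were not, and none was at 0. Macrophages express Abcg1 strongly, and aged bleo 4 was the highest library for both Abcg1 and the macrophage markers, while aged bleo 5 was second for the markers and lowest of the bleo group for Abcg1. Their part in the Abcg1 result was not tested. In such bulk libraries fewer cells of a type and less RNA per cell cannot be told apart. Adipocyte markers were near 0, with 6 markers summing to 0.888 to 2.14 CPM in aged sham and 0.614 to 1.33 CPM in aged bleo, and none of the 6 had enough counts to be tested. The 8 alveolar epithelial markers summed to 10.3 to 110.2 CPM in aged sham, with aged sham 3 the highest, and to 17.1 to 67.4 CPM in aged bleo, and none was called. The 5 Schwann cell markers, from cells rich in sterol synthesis, summed to 39.1 to 58.9 CPM in aged sham and to less, 16.1 to 30.3 CPM, in aged bleo, and 1 of them fell. Of the other lists, 1 of 5 pan-leukocyte, 0 of 6 neutrophil and 1 of 6 endothelial markers were called higher and none lower. Single libraries stood out for leukocyte transcripts. Aged sham 4 had a neutrophil marker sum of 1017 CPM, while no other sham library exceeded 448 CPM. For aged bleo 4 this sum was 905 CPM, while no other bleo library exceeded 146 CPM. Both libraries also led their groups for pan-leukocyte markers, with sums of 327 and 509 CPM. The part of leukocytes in their member values was not tested. The smooth muscle and pericyte list had 1 of 6 higher and 1 lower, and the fibroblast list 3 of 7 higher and 2 lower.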

How the data were processed

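RNA-Seq libraries of sorted Col1a1-GFP lung fibroblasts were analysed, 4 from aged sham and 5 from aged bleo lungs, grouped by their sample labels. The authors deposited read counts of 43346 genes, whole numbers without normalization, and FPKM values, which they scaled to gene length and library size. FPKM served only to compare levels between genes and as an alternative. The submitters' processing notes name bcl2fastq, STAR 2.5.2b, Subread and featureCounts, and the builds mm10 and GRCm38. Positions are those of the deposited table, and 78.8% of 42462 shared identifiers had the same position in GENCODE M21. Libraries were made with a poly-A kit that does not mark strand, and how the counting treated strand is not given in the sources used here.

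Testing was limited to genes averaging 25 counts or more, with edgeR 4.0.16 in R 4.3.3 (TMM, glmQLFit and glmQLFTest, no covariate), and 95% intervals came from the same fit. Limits from counts cover counting error only, and 3 counts correspond to 0.0409 to 0.0605 CPM. Libraries of a group differed by a chi-square per degree of freedom of 30.9 to 468, so none was a duplicate. For mean log2 CPM, 2 was taken as the prior count. On simulated counts for this comparison (16727 genes, 200 of them changed), edgeR found 69.4% of genes changed 2-fold and 96.9% of those changed 4-fold, and 17 of its 178 calls were false. In the data 23.8% of tested genes were called, far more than were changed in the simulation. The simulated shares may therefore differ from those of the data. The members, the lists of 45 pathway genes and of marker genes, and the motif letters were chosen with earlier results of these data known. Called members are given with every library's value, uncalled members by range or where a role is described, and called pathway genes up to 3 per direction and list. Alternatives were DESeq2 1.42.0, limma 3.58.1 on log2 CPM and on log2 FPKM with 0.1 or 1 added, scaling by RLE or by library size alone, testing without a filter or with 10 or more counts demanded in each library, stricter thresholds, each library left out, replicate numbers as a block, and libraries whose names end in 4 only. Leaving out aged sham 1 and aged bleo 4 together was added after seeing the data.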

Additional observations from a re-analysis of the deposited data

Results flagged for a closer look

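In 4 of the 70 groups of values checked, 1 library lay far from the others of its group, where chance gives about 1 in 20. Mvk, the mevalonate kinase, stood at 13.77 CPM in aged sham 3 against 12.6 to 12.7 CPM in the other sham libraries, a gap that is small in size. Idi1, the isomerase, stood at 12.96 CPM in aged bleo 5 against 6.96 to 8.20 CPM in the other bleo libraries. Insig1 stood at 41.61 CPM in aged bleo 4 against 54.1 to 59.2 CPM. Acly stood at 102.6 CPM in aged bleo 4 against 113.6 to 118.1 CPM. None of these 4 genes was called between the groups.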

How the results depend on the processing

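At the thresholds of the report, Hmgcs1, Fdps, Sqle, Cyp51, Abcg1 and Scd1 were called in the same direction under all 20 alternative fits. Over all members and these fits, 641 of 680 values kept direction and call, 24 lost the call, 7 gained it and 8 turned sign, the last all in genes that were not called. With 1 added to FPKM, 6 members rose and 1 fell, and 1785 genes were called in all. At the stricter thresholds (FDR 0.05, fold 2), 4 members rose (Fdps, Sqle, Cyp51 and Abcg1), 0 fell and 2158 genes were called, so that 7 higher and 2 lower calls were lost, those of Hmgcs1 and Scd1 among them. The count of members that fell was 1 with 0.1 added to FPKM, with library size alone, unfiltered, with 10 or more counts demanded, and without aged sham 1 and aged bleo 4, where Insig2 lost its call. With libraries whose names end in 4 only, where the lone aged bleo 4 is assumed to vary like the sham libraries, 11 rose, 4 fell and 6177 genes were called. The name ending is the same for all sham libraries and differs for aged bleo 1, 2, 3 and 5, its meaning is not stated, and it cannot be told apart from treatment otherwise. Leaving out each library gave 3525 to 4597 genes, 9 to 13 members higher, 1 to 2 lower, and 6 to 9 pathway genes, with 13 higher without aged sham 1 and 9 without aged sham 2. Signs turned for Srebf1 in the replicate block (0.021) and without aged bleo 5 (-0.13 to 0.027 over libraries left out), for Scap without aged sham 4, aged bleo 1 or aged bleo 3 (-0.022 to 0.086) and with name ending 4 only (-0.10), for Acaca there (-0.022), and for Acly without aged sham 1 and aged bleo 4 (0.018). The cause was not tested. Replicate numbers did not pair the libraries, with correlations of 0.0922, 0.0623, -0.130 and 0.326 for numbers 1 to 4, of which the number 4 libraries alone correlated best with their own number. With the replicate block, which left out aged bleo 5, 3541 genes were called, 9 members rose and 1 fell. The calls of Mvd (0.67), Elovl6 (0.57) and Insig2 (-0.56) were lost, those of Elovl6 and Insig2 also without aged bleo 5 alone. No member had fewer than 185 counts in a library, and with 4 and 5 libraries the spread between them sets the precision.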

Other observations

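Over all 34 genes, aged sham 1 lay above its group's mean for 27, with a median deviation of 0.14 on the log2 scale, and aged sham 4 below for 29, with a median deviation of -0.15. In aged bleo, aged bleo 1 lay above its group's mean for 24 and aged bleo 4 below for 23, with median deviations of 0.05 and -0.10.

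Genes of cholesterol storage and release that were measured beside the members had smaller differences, at folds under the threshold. Soat1, which esterifies cholesterol for storage, averaged 82.2 ± 4.06 CPM in aged sham (SD, n = 4) and 110.4 ± 14.2 CPM in aged bleo (SD, n = 5) (log2 fold change 0.43, FDR 0.0105). Lipa, the lysosomal lipase that frees it again, averaged 112 ± 9.76 CPM in aged sham (SD, n = 4) and 154 ± 9.28 CPM in aged bleo (SD, n = 5) (log2 fold change 0.45, FDR 0.00314). For both, all 5 aged bleo libraries lay above all 4 aged sham libraries, a pattern that 16.1% of all tested genes had. In the list of 12 that they come from, 7 genes had positive and 5 had negative fold changes. Among the latter were Npc2 (log2 fold change -0.08, FDR 0.546) and Osbp (log2 fold change -0.03, FDR 0.723), which overlapped between the groups. Scarb1, a receptor for high-density lipoprotein, averaged 14.4 ± 3.37 CPM in aged sham (SD, n = 4) and 21.3 ± 4.53 CPM in aged bleo (SD, n = 5) (log2 fold change 0.56, FDR 0.0511).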
